A study of Mus musculus with 7 samples.

Results

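Amacrine cells are the inhibitory and modulatory interneurons of the inner retina, and 10 genes that give these cells their transmitter identity were followed here by symbol in the gene count table: Gad1, Gad2 and Slc32a1 for GABA, Slc6a9 for glycine, Chat, Slc5a7 and Slc18a3 for acetylcholine, Th for dopamine, Slc17a8 for glutamate and Tfap2b, a transcription factor shared by many amacrine types. They are 10 of the 52550 genes in the table, and all 10 were among the 20128 genes that passed the expression filter. The data were total RNA-seq of whole retina from C57BL/6J mice aged 12.5 weeks, with 4 WT mice and 3 SCA7 mice. The SCA7 mice were homozygous knock-ins (SCA7 140Q/140Q, labelled SCA7 KI homo), which carry an expanded CAG repeat in both copies of Atxn7 under the gene's own promoter, as a model of spinocerebellar ataxia type 7 and its retinopathy. WT mice carried no knock-in allele, each library came from the 2 retinas of 1 mouse, and the sex of each mouse was not in the labels. No amacrine cells were isolated, so in these bulk samples fewer cells of a type and less RNA per cell cannot be told apart.

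Most amacrine cells release either GABA or glycine. GABA is made from glutamate by the glutamate decarboxylases GAD67 (Gad1) and GAD65 (Gad2), and the vesicular transporter VGAT (Slc32a1) loads both GABA and glycine into synaptic vesicles, while the glycine transporter GlyT1 (Slc6a9) marks glycinergic amacrine cells. Smaller populations add another transmitter: starburst cells make acetylcholine and GABA and serve direction selectivity, dopaminergic cells signal light adaptation, and VGLUT3 cells, which are glycinergic, also package glutamate. Some of these genes are not private to amacrine cells, since horizontal cells use the GABA machinery in part and express Tfap2b.

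Total counts ranged from 59902546 to 74733202 in WT and from 56497675 to 96635832 in SCA7 libraries. Levels are given as CPM (counts scaled to a common library size) after TMM scaling, which equalises the bulk of genes between libraries. TMM factors were 0.890 to 0.974 in WT and 1.07 to 1.09 in SCA7 libraries, and the 7 rod photoreceptor genes Gnat1, Pde6a, Pde6b, Nrl, Sag, Cnga1 and Gngt1 were downregulated (log2 fold changes from -1.76 to -0.67), with a summed level of 26540 to 28170 CPM in WT and 9290 to 11620 CPM in SCA7 retina. Scaling by total counts alone moved the median log2 fold change of all genes from -0.02 to 0.17, a shift of 0.19, so small changes are read relative to that shift. WT replicate 1 had the lowest level of the 4 WT libraries for 9 of the 10 members, and the summed level of the members was 549.0 CPM in it against 623.5 to 658.3 CPM in the other WT libraries and 483.4 to 526.6 CPM in the SCA7 libraries.

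Changes in the amacrine transmitter genes were small. Fold changes (FC, SCA7/WT) were tested with edgeR's quasi-likelihood test and Benjamini-Hochberg adjustment over all genes tested, and a gene was called downregulated at FC < 0.7 or upregulated at FC > 1.3 with an adjusted p under 0.05. Only Th was downregulated, 1 of 10 members, against 7.91% of all genes tested, a share close to this background. No member was upregulated by edgeR, against 7.47% of all genes, and none was upregulated by DESeq2 or limma-voom or was higher at an unadjusted p under 0.05, a rule that 19.5% of all genes met upward and 20.2% met downward. Without the FC threshold, Gad1, Slc6a9 and Th were lower at an adjusted p under 0.05, 3 of 10 members against 14.2% of all genes, and the share of all genes that were higher by the same rule was also 14.2%. For these same 3 members every SCA7 library lay below every WT library, a separation seen in 18.3% of all genes. The median log2 fold change of the members was -0.20, beside -0.02 for all genes, and 8 of 10 were lower in SCA7 retina with TMM scaling but 5 of 10 with total counts alone, which reversed Slc32a1, Slc5a7 and Tfap2b.

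**Figure D1:**
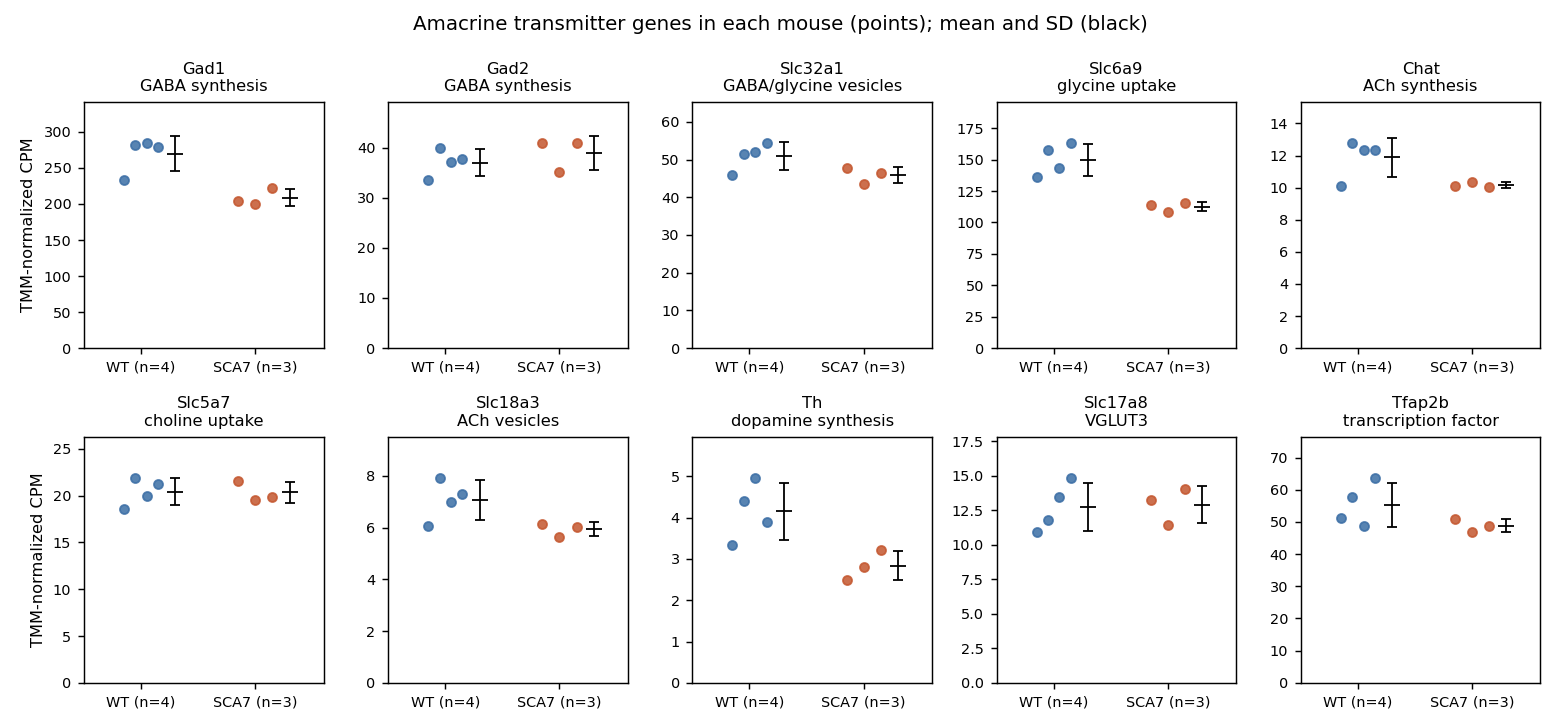
Level of each amacrine transmitter gene (vertical axis, TMM-normalized CPM, from 0) in each WT (blue) and SCA7 (orange) mouse, with 1 point per library and the mean and SD in black. The groups do not overlap for Gad1, Slc6a9 and Th, and they overlap for the other 7 members.

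Per length, Gad1 and Slc6a9 were the most abundant members. Reads per kilobase (RPK, size-factor-normalised counts over the median transcript length of the gene) in WT retina were 12850 ± 1160 for Gad1 and 8153 ± 704 for Slc6a9 (SD, n = 4). Tfap2b at 1963 ± 243 RPK, Slc32a1 at 1257 ± 90.8 RPK, Chat at 1247 ± 128 RPK and Gad2 at 790.9 ± 58.4 RPK followed (SD, n = 4). The least abundant were Slc5a7 at 345.2 ± 25.6 RPK, Slc17a8 at 278.5 ± 37.8 RPK, Th at 250.1 ± 42.1 RPK and Slc18a3 at 202.1 ± 22.9 RPK (SD, n = 4). Among neighbours in this order, Slc32a1 and Chat, Slc5a7 and Slc17a8, Slc17a8 and Th, and Th and Slc18a3 had overlapping ranges in the WT libraries. The order was the same in SCA7 retina, where Gad1 had 10020 ± 595 RPK and Th 172.7 ± 21.9 RPK (SD, n = 3). The order depends on the length used: over the union of all exons, Chat had 174.6 RPK and ranked 9 in place of 5.

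Among the GABA genes, Gad1 was lower in SCA7 retina and Gad2 was not shown to change. Gad1 (ENSMUSG00000070880, mm10 chr2:70553072-70602014, plus strand) encodes GAD67, which makes most of the GABA used throughout the cell. It had 233.9, 281.8, 284.8 and 279.5 CPM in the WT libraries and 204.7, 200 and 221.7 CPM in the SCA7 libraries. The groups did not overlap, and WT replicate 1 lay nearest to the SCA7 libraries. The FC was 0.773 (log2 fold change -0.37, SE 0.079, edgeR adjusted p = 0.0044), a fall short of the 0.7 threshold. With total counts alone the log2 fold change of Gad1 was -0.18 and the edgeR adjusted p was 0.08.

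Gad2 (ENSMUSG00000026787, mm10 chr2:22622205-22693874, plus strand) encodes GAD65, the form tied to synaptic vesicles. Its levels were 33.5, 39.8, 37.1 and 37.7 CPM in WT and 41.0, 35.1 and 40.9 CPM in SCA7 retina. The groups overlapped, and the highest library was an SCA7 library. The log2 fold change was 0.07 (SE 0.077, 95% interval -0.09 to 0.24, edgeR adjusted p = 0.51), although with total counts alone it was 0.26 with an edgeR adjusted p of 0.021.

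The difference between the 2 decarboxylase genes was also read as a ratio of counts within each library, which does not depend on library scaling. The Gad2 to Gad1 ratio was 0.143, 0.141, 0.130 and 0.135 in the WT libraries and 0.200, 0.176 and 0.185 in the SCA7 libraries. All 3 SCA7 ratios lay above all 4 WT ratios, and the mean was 1.36 times higher in SCA7 retina (0.187 ± 0.012, SD, n = 3, against 0.137 ± 0.0058, SD, n = 4). No test was run on the ratios, which use the same counts as the changes of single members and are not separate evidence.

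Stretches upstream of the RefSeq starts are shown for these decarboxylase genes, because they moved unequally, and for Th, because it was the member called downregulated. Each is the part of the 250 bases before the start that holds no annotated exon base, 5′ to 3′ on the gene's strand (RefSeq, GRCm38.p6). Capitals mark matches on either strand to the cAMP response element TGACGTCA or to the AP-2 motif GCCNNNGGC, the letters bound by the family of Tfap2b, and no match of one overlaps a match of the other here. The 250-base windows of 1.55% of 32851 promoters held the first motif and 13.7% held the second.
Gad1 (chr2:70561879-70562041, plus strand, 163 bases): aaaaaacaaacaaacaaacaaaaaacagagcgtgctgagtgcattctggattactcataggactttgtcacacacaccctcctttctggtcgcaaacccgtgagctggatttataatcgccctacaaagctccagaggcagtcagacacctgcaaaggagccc
Gad2 (chr2:22622077-22622204, plus strand, 128 bases): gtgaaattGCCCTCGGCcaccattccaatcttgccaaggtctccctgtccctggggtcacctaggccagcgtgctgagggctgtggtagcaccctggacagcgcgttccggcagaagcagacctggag
Th (chr7:142900015-142900245, minus strand, 231 bases): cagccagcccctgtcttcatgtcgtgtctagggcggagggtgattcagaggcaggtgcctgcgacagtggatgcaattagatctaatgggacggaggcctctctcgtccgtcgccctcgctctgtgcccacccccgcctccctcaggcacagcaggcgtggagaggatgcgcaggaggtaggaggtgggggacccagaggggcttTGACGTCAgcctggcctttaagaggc
The window of Th held 1 cAMP response element, with its first base at position -45 counted from the start. Gad2 held 2 AP-2 matches, at -242 and -121, of which the second lies among exon bases and is not shown, and the window of Gad1 held neither motif. A match describes letters only, and binding was not measured.

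Slc32a1 (ENSMUSG00000037771, mm10 chr2:158610767-158615748, plus strand), the vesicular transporter shared by GABA and glycine cells, had 45.8, 51.4, 52.1 and 54.4 CPM in WT and 47.7, 43.55 and 46.3 CPM in SCA7 retina. The groups overlapped through WT replicate 1, which had a lower level than 2 of the 3 SCA7 libraries. The log2 fold change was -0.15 (SE 0.068, edgeR adjusted p = 0.12), and it was 0.04 with total counts alone. Without WT replicate 1, Slc32a1 was at -0.20 with an edgeR adjusted p of 0.042. Relative to Gad1 and Gad2 together, Slc32a1 counts had a ratio of 0.166 ± 0.0061 in WT (SD, n = 4) and 0.185 ± 0.0089 in SCA7 retina (SD, n = 3), with every SCA7 library above every WT library. Gad1 is most of that sum, with WT means of 270 CPM for Gad1 and 37.0 CPM for Gad2, so this ratio carries the Gad1 fall already given. An antisense gene, Gm14205, shares 697 exon bases with Slc32a1 but was close to absent, at 1 to 8 counts in WT and 2 to 8 counts in SCA7 retina.

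The glycine member fell in SCA7 retina. Slc6a9 (ENSMUSG00000028542, mm10 chr4:117834506-117875198, plus strand), which encodes the transporter that takes glycine back up, had 136, 157, 143 and 163 CPM in WT and 114, 108 and 116 CPM in SCA7 retina. The groups did not overlap, and the 3 SCA7 libraries lay close together. The FC was 0.752 (log2 fold change -0.41, SE 0.073, edgeR adjusted p = 0.0013). The edgeR, DESeq2 or limma-voom adjusted p of Slc6a9 stayed under 0.05 in all 16 alternative fits, with log2 fold changes from -0.46 to -0.22. The ratio of Slc6a9 to Slc32a1 counts was 2.94 ± 0.14 in WT (SD, n = 4) and 2.46 ± 0.060 in SCA7 retina (SD, n = 3), again with no overlap and with no test.

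A neighbour limits the reading of Slc6a9. On the opposite strand, Ccdc24 shares 1429 of its exon bases with Slc6a9, 27.8% of the exon bases of Slc6a9, and Ccdc24 fell from a mean of 60.4 CPM to 25.1 CPM (log2 fold change -1.27, edgeR adjusted p = 5.5e-05). Gm17114, also on the opposite strand and sharing 511 exon bases with Slc6a9, had 0 to 9 counts per library. The libraries were made with a kit that keeps strand, the strand setting of the counting was not given in the sources used here, and the part of Ccdc24 in the Slc6a9 value was not tested.

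The 3 acetylcholine genes were not shown to change. Chat (ENSMUSG00000021919, mm10 chr14:32408203-32465989, minus strand), which makes acetylcholine in starburst cells, had 10.1, 12.8, 12.3 and 12.4 CPM in WT and 10.1, 10.4 and 10.1 CPM in SCA7 retina. The other WT libraries stood above the SCA7 libraries, whereas WT replicate 1 lay among them. The log2 fold change of Chat was -0.23 (SE 0.089, 95% interval -0.42 to -0.03, edgeR adjusted p = 0.076).

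Slc18a3 (ENSMUSG00000100241, mm10 chr14:32462438-32464850, minus strand) encodes the vesicular acetylcholine transporter and lies within the span of Chat on the same strand, with 0 exon bases shared. Its levels were 6.05, 7.93, 6.98 and 7.30 CPM in WT and 6.13, 5.62 and 6.04 CPM in SCA7 retina. As for Chat, only WT replicate 1 reached down to the SCA7 libraries. The log2 fold change was -0.25 (SE 0.10, 95% interval -0.48 to -0.03, edgeR adjusted p = 0.086). Without WT replicate 1, both genes passed, with a log2 fold change of -0.30 for Chat (edgeR adjusted p = 0.014) and -0.32 for Slc18a3 (edgeR adjusted p = 0.032).

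Slc5a7 (ENSMUSG00000023945, mm10 chr17:54273590-54299034, minus strand), the high-affinity choline transporter that supplies acetylcholine synthesis, had 18.6, 21.9, 19.97 and 21.2 CPM in WT and 21.6, 19.6 and 19.9 CPM in SCA7 retina. The groups overlapped fully, with a log2 fold change of -0.01 (SE 0.074, 95% interval -0.17 to 0.15, edgeR adjusted p = 0.95). The Slc18a3 to Chat ratio was 0.594 ± 0.022 in WT (SD, n = 4) and 0.583 ± 0.035 in SCA7 retina (SD, n = 3), and the groups overlapped. The Slc5a7 to Chat ratio was 1.72 ± 0.089 in WT (SD, n = 4) and 2.00 ± 0.13 in SCA7 retina (SD, n = 3), with every SCA7 library above every WT library.

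**Figure D2:**
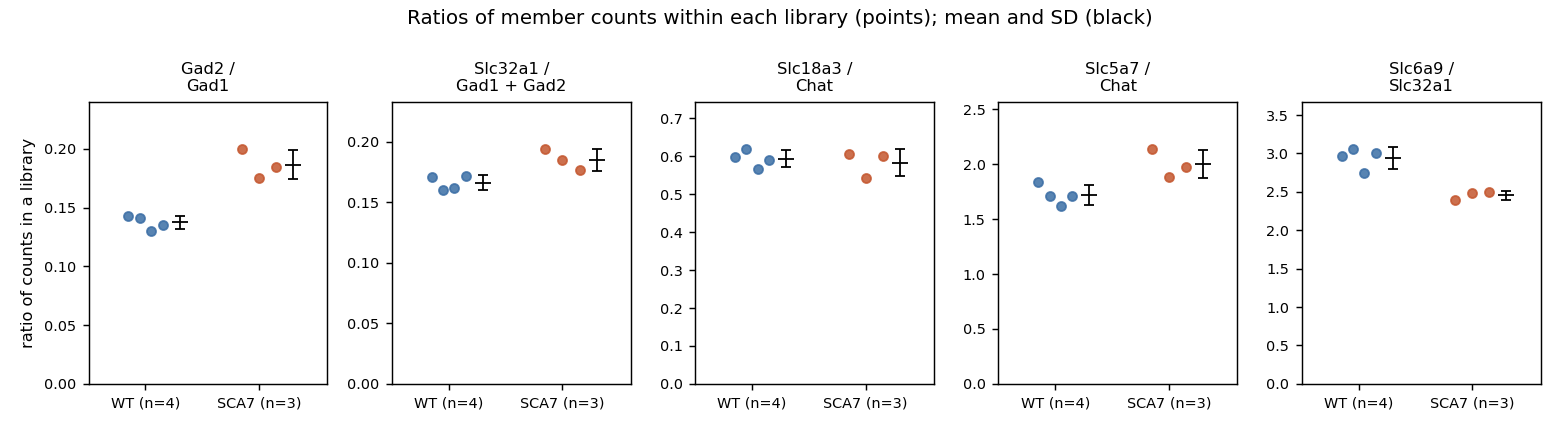
Ratios of the counts of member genes within each library (vertical axes, from 0) in WT (blue) and SCA7 (orange) mice, with the mean and SD in black. The SCA7 ratios lie above the WT ratios for Gad2 to Gad1, Slc32a1 to Gad1 plus Gad2 and Slc5a7 to Chat, below them for Slc6a9 to Slc32a1, and overlap them for Slc18a3 to Chat.

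The dopamine member showed the largest fall of the 10 with TMM scaling. Th (ENSMUSG00000000214, mm10 chr7:142892752-142931128, minus strand) encodes tyrosine hydroxylase, the rate-limiting enzyme of dopamine synthesis, which in the retina marks the sparse dopaminergic amacrine cells. It had 3.33, 4.40, 4.97 and 3.90 CPM in WT and 2.50, 2.81 and 3.21 CPM in SCA7 retina. The groups did not overlap, but the highest SCA7 library lay just under WT replicate 1. The FC was 0.687 (95% interval 0.550 to 0.860) and the log2 fold change was -0.54 (SE 0.15, edgeR adjusted p = 0.017). The call lies at the 0.7 threshold, and the edgeR adjusted p rose to 0.087 without SCA7 replicate 1, to 0.061 without SCA7 replicate 2 and to 0.061 with total counts alone. Leaving out WT replicate 2 or WT replicate 3 also ended the call, with 0 members then downregulated.

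The VGLUT3 gene and the shared transcription factor were not shown to change. Slc17a8 (ENSMUSG00000019935, mm10 chr10:89574020-89621253, minus strand), the vesicular glutamate transporter VGLUT3, had 10.95, 11.8, 13.4 and 14.85 CPM in WT and 13.2, 11.4 and 14.03 CPM in SCA7 retina. The SCA7 values fell inside the WT range, with a log2 fold change of 0.02 (SE 0.11, 95% interval -0.22 to 0.25, edgeR adjusted p = 0.93). Tfap2b (ENSMUSG00000025927, mm10 chr1:19208914-19238576, plus strand), which acts in the development of amacrine and horizontal cells, had 51.1, 57.7, 48.8 and 63.8 CPM in WT and 50.8, 46.7 and 48.9 CPM in SCA7 retina. The groups overlapped through WT replicate 3, with a log2 fold change of -0.18 (SE 0.086, 95% interval -0.37 to 0.01, edgeR adjusted p = 0.14). Without WT replicate 3, Tfap2b was at -0.24 with an edgeR adjusted p of 0.023.

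**Figure D3:**
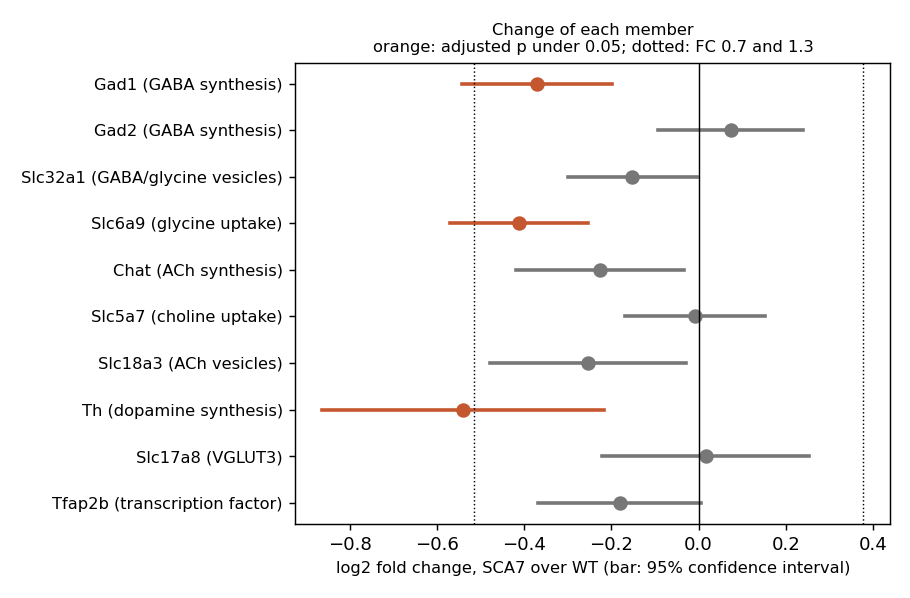
Log2 fold change (SCA7 over WT, horizontal axis) of each member with its 95% confidence interval, with members at an adjusted p under 0.05 in orange and dotted lines at FC 0.7 and 1.3. Gad1, Slc6a9 and Th are in orange, and only the point of Th lies past the lower line.

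Gad1, Slc6a9 and Th were lower in SCA7 retina under every scaling tried. Over the 16 alternative fits the log2 fold change ran from -0.43 to -0.18 for Gad1 and from -0.64 to -0.35 for Th. For Gad2 it ran from 0.03 to 0.26 and for Slc17a8 from -0.05 to 0.21.

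**Figure D4:**
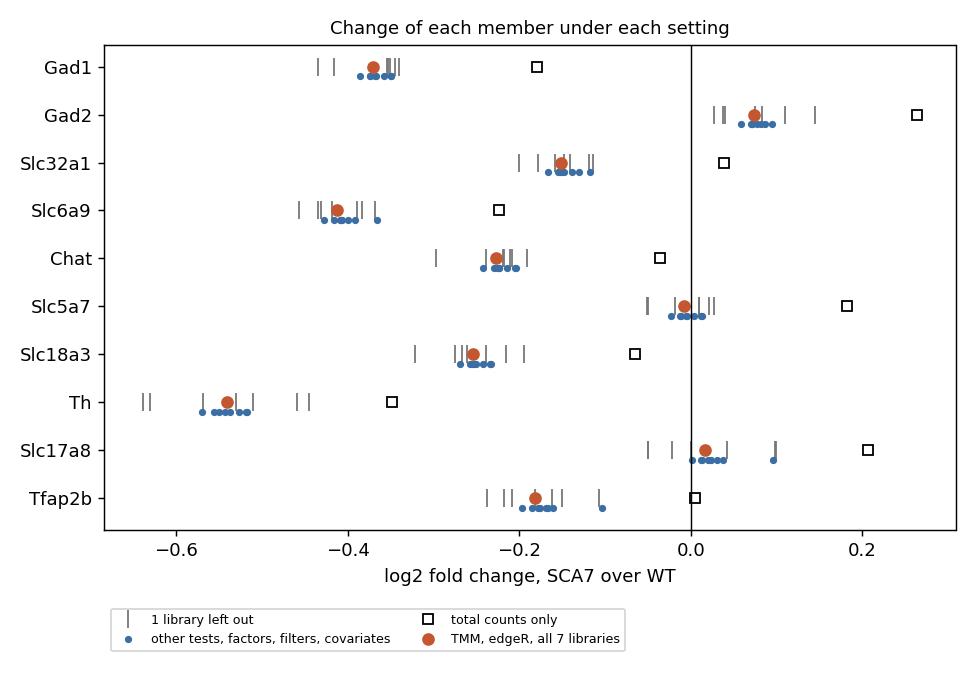
Log2 fold change (SCA7 over WT, horizontal axis) of each member with TMM scaling and edgeR on all 7 libraries (filled circle), with 1 library left out (ticks), with total counts only (open square) and with the other tests, factors, filters and covariates (small points). Total counts shift every member to the right by about the 0.19 of the median gene, and Gad1, Slc6a9 and Th stay left of 0.

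The other genes of the transmitter pathways and of amacrine subtypes were read from 65 listed genes, all of them tested. Of these, 6 were downregulated, a share near the 7.91% of all genes tested, and 2 were upregulated, against 7.47% of all genes tested, and 1 of these 2, Ptf1a, passed the expression filter only through the SCA7 libraries. Their median log2 fold change was -0.12, beside -0.02 for all genes. Without the FC threshold, 18 of 65 were lower and 5 of 65 were higher at an edgeR adjusted p under 0.05 with TMM, against 14.2% of all genes in each direction. The balance of calls depends on the scaling. With total counts alone 4 of 65 were downregulated and 10 upregulated, beside 978 and 3681 of the 20128 genes tested.

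The dopamine list held 1 downregulated gene of 14, a share near the 7.91% of all genes tested. It was Slc18a2, which encodes the vesicular monoamine transporter that loads dopamine into vesicles. Slc18a2 had 4.37, 4.77, 6.26 and 4.21 CPM in WT and 2.96, 3.61 and 3.43 CPM in SCA7 retina, with no overlap (log2 fold change -0.55, edgeR adjusted p = 0.015). With total counts alone Slc18a2 was at -0.36 and was no longer past the FC threshold, and the call was also lost without SCA7 replicate 1 (-0.47, edgeR adjusted p = 0.076) and without WT replicate 3 (-0.41, within the FC limits). The D2 dopamine receptor gene Drd2 was lower within the FC limits (log2 fold change -0.41, edgeR adjusted p = 0.0024), which with total counts alone was at -0.22 with an edgeR adjusted p of 0.057. The dopamine transporter gene Slc6a3 was too low to read, at 0.085 to 0.321 CPM in WT and 0.146 to 0.243 CPM in SCA7 retina, and Ddc, the decarboxylase that follows Th, had a log2 fold change of -0.10 (edgeR adjusted p = 0.72). The median of the list was -0.10, and 10 of 14 genes were lower with TMM but 6 of 14 with total counts, which left 1 gene lower and 4 higher at an edgeR adjusted p under 0.05 and Pts, an enzyme of the tetrahydrobiopterin cofactor, upregulated (0.47).

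In the GABA list, 1 of 6 genes was downregulated, against 7.91% of all genes tested. It was Slc6a13, the GABA transporter GAT2, with 23.9, 5.87, 5.95 and 8.58 CPM in WT and 2.18, 1.92 and 1.08 CPM in SCA7 retina (log2 fold change -2.70, edgeR adjusted p = 0.042). WT replicate 1 was far above the other libraries, and without it the log2 fold change was -2.001 (edgeR adjusted p = 7.6e-04). The call held in 3 of 7 fits that left out 1 library. It was lost without WT replicate 4, without each SCA7 replicate in turn and with limma-voom. With total counts alone Slc6a13 stayed downregulated, and 3 of the 6 genes were higher within the FC limits at an edgeR adjusted p under 0.05: Slc6a11 (0.28), Abat (0.34) and Aldh5a1 (0.37). Slc6a13 is known from the pigment epithelium and the coverings of the brain. The pigment epithelium and choroid genes Rpe65 and Ttr were also downregulated, 2 of 6 on that list, against 7.91% of all genes tested. The summed level of the list was 70.1 to 129 CPM in WT and 24.6 to 46.2 CPM in SCA7 retina. Both genes lost the call without SCA7 replicate 2. The other 4 genes of that list did not pass, with log2 fold changes of -0.90 for Pmel, 0.14 for Tyr, 0.08 for Best1 and 0.02 for Mitf (edgeR adjusted p = 0.25, 0.81, 0.80 and 0.92). The part of such tissue in the Slc6a13 value was not tested.

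In the glycine list of 6 genes, none was called with TMM by edgeR or limma-voom or by DESeq2, whereas with total counts alone edgeR called Shmt1, Shmt2 and Gldc upregulated, 3 of 6. With TMM, at an unadjusted p under 0.05 in edgeR 1 was lower and 3 were higher, against 20.2% and 19.5% of all genes. Gcsh, a subunit of the glycine cleavage system and the most abundant of them in CPM, had a log2 fold change of -0.06 (edgeR adjusted p = 0.72). Gldc, the glycine decarboxylase of that system, was higher within the FC limits (log2 fold change 0.32, edgeR adjusted p = 0.011). Slc6a5, the neuronal glycine transporter GlyT2, had a log2 fold change of -0.30 (edgeR adjusted p = 0.079).

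In the acetylcholine and starburst list, 1 of 9 genes was upregulated and 0 downregulated, against 7.47% and 7.91% of all genes tested. The upregulated gene was Megf10, a receptor that spaces starburst cells and is also known from glia, with 21.8 to 27.7 CPM in WT and 31.8 to 35.8 CPM in SCA7 retina (log2 fold change 0.42, edgeR adjusted p = 0.0025), a call that held in 6 of 7 fits that left out 1 library. Of the Müller glia genes, Kcnj10 (log2 fold change 0.33) and Aqp4 (0.31) were higher and Glul (-0.36) was lower at edgeR adjusted p values of 0.016, 0.0063 and 0.013, with a summed level of the 6 genes of 4253 to 5123 CPM in WT and 4058 to 4279 CPM in SCA7 retina; their part in the Megf10 value was not tested. With total counts alone Glul did not pass (-0.17, edgeR adjusted p = 0.19), and Kcnj10 (0.52) and Aqp4 (0.50) were upregulated. Prima1, Slc44a1 and Isl1 were lower within the FC limits, of which only Slc44a1 still passed with total counts alone (-0.21, edgeR adjusted p = 0.027). By DESeq2 and limma-voom 0 of these 9 genes were downregulated, and at an unadjusted p under 0.05 in edgeR 3 were lower and 2 higher, against 20.2% and 19.5% of all genes. With total counts alone 3 of 9 were upregulated, Bche, Sox2 and Megf10, and 4 were higher at an edgeR adjusted p under 0.05.

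Of the related lists, the neuropeptide list held the most calls. This list of 8 genes covers neuropeptides, the calcium-binding protein gene Calb2 and the nitric oxide synthase gene Nos1, which mark subsets of amacrine cells. Calb2 was the most abundant of them in CPM, at 300 to 378 CPM in WT retina. All 8 were lower in SCA7 retina with TMM and also with total counts alone. With TMM 4 were downregulated, against 7.91% of all genes tested, and 6 were lower at an edgeR adjusted p under 0.05, against 14.2%. The median log2 fold change was -0.72 (-0.53 with total counts), in a list chosen with earlier results of these data known. Vip, vasoactive intestinal peptide, had 26.3, 26.4, 35.6 and 17.6 CPM in WT and 6.52, 7.49 and 8.67 CPM in SCA7 retina (log2 fold change -1.80, edgeR adjusted p = 0.0017). Every WT library stood well above the SCA7 libraries.

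Tac1, the substance P precursor, fell from 18.0 to 27.7 CPM in WT to 13.1 to 14.3 CPM in SCA7 retina (log2 fold change -0.75, edgeR adjusted p = 0.0012). Cck, cholecystokinin, had 8.52 to 10.97 CPM in WT and 5.74 to 5.80 CPM in SCA7 retina (log2 fold change -0.75, edgeR adjusted p = 2.7e-04). Sst, somatostatin, had 3.13 to 5.03 CPM in WT and 2.19 to 2.67 CPM in SCA7 retina (log2 fold change -0.70, edgeR adjusted p = 0.0077), and with total counts Sst was at -0.50, within the FC limits. Every SCA7 library lay below every WT library for 7 of the 8 listed genes, these 4 peptide genes among them, against 18.3% of all genes tested. Each of these 4 stayed downregulated in all 7 fits that left out 1 library. Penk, proenkephalin, had 43.8 CPM in WT replicate 1 against 8.29 to 19.3 CPM in the other WT libraries and 4.36 to 4.79 CPM in SCA7 retina, and did not pass (log2 fold change -2.19, edgeR adjusted p = 0.067). Like Slc6a13, Penk was highest in WT replicate 1 and next highest in WT replicate 4, and the part of other tissue in its value was not tested. DESeq2 called Penk downregulated (log2 fold change -2.18, DESeq2 adjusted p = 0.0022), as did edgeR without WT replicate 1 (-1.54, edgeR adjusted p = 0.0095) or without WT replicate 2 (-2.46, edgeR adjusted p = 0.034). Npy and Calb2 were lower within the FC limits, Npy no longer passing with total counts alone (edgeR adjusted p = 0.088), and Nos1 did not pass (log2 fold change -0.34, edgeR adjusted p = 0.089).

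**Figure D5:**
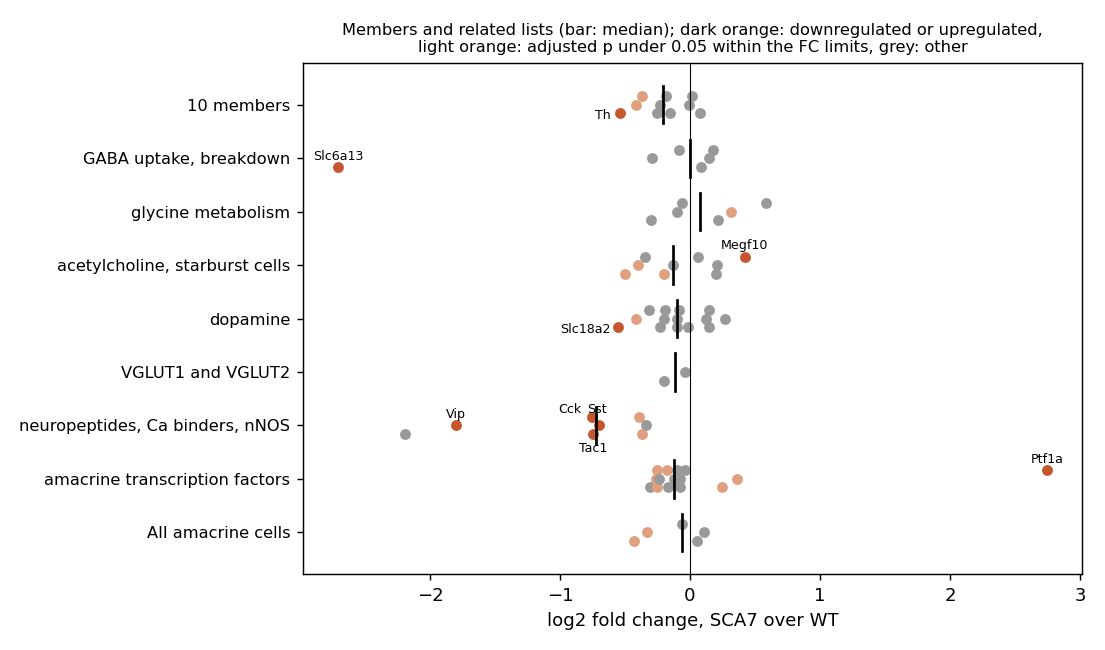
Log2 fold change (SCA7 over WT, horizontal axis) of every gene in the members and in 8 related lists, with a bar at the median of each list, dark orange for genes called downregulated or upregulated and named, and light orange for genes at an adjusted p under 0.05 within the FC limits. The neuropeptide list has its median at -0.72 and the 10 members theirs at -0.20.

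Of the 15 other amacrine transcription factors, 0 were downregulated by edgeR, DESeq2 or limma-voom, while 6 were lower at an unadjusted p under 0.05 in edgeR, against 20.2% of all genes. Ptf1a, which sets the amacrine and horizontal fate in the embryo, had 0.015 to 0.051 CPM in WT and 0.164 to 0.276 CPM in SCA7 retina. With 1 to 3 counts per WT library and 14 to 25 per SCA7 library, Ptf1a passed the expression filter only through the group where it was high and so had to differ, and its upregulated call (log2 fold change 2.75) is given as a description. The ratio of the pooled rates was 6.97, with an exact 95% interval of 3.31 to 16.9 that covers counting error only. Pax6, a factor of all amacrine cells, was lower within the FC limits (log2 fold change -0.25, edgeR adjusted p = 0.020), as were Tfap2c, Barhl2 and Meis2, while Tcf4 and Nfib were higher. With total counts alone 5 of 15 were lower in place of 12 of 15, Pax6, Tfap2c, Barhl2 and Meis2 no longer passed (edgeR adjusted p from 0.49 to 0.86), and Tcf4 (0.43) and Nfib (0.55) were upregulated.

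In the list for AII cells, the glycinergic amacrine cells of the rod pathway, 0 of 5 genes were downregulated by edgeR, DESeq2 or limma-voom, and 2 were lower at an unadjusted p under 0.05 in edgeR, against 20.2% of all genes. These were Prox1 (log2 fold change -0.43, edgeR adjusted p = 4.2e-04) and Gjd2, the connexin-36 gene (-0.33, edgeR adjusted p = 0.0023), both also found in other retinal neurons, and with total counts alone Gjd2 did not pass (-0.14, edgeR adjusted p = 0.099). Car2, the most abundant of the 5 in CPM, had a log2 fold change of 0.11 (edgeR adjusted p = 0.34), and 0.31 with total counts alone (edgeR adjusted p = 0.0039). The part of AII cells in the Car2 value was not tested. The more widespread vesicular glutamate transporter genes did not pass: Slc17a7 (VGLUT1), used by photoreceptors and bipolar cells, had 967 to 1085 CPM in WT and 799 to 940 CPM in SCA7 retina (edgeR adjusted p = 0.076), and Slc17a6 (VGLUT2) had a log2 fold change of -0.04 (edgeR adjusted p = 0.75).

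Markers of the other retinal neurons that share these genes moved as follows, beside 7.91% of all genes tested downregulated and 7.47% upregulated. Of 5 matched horizontal cell genes, Tmem215 was downregulated (log2 fold change -0.54, edgeR adjusted p = 1.5e-04) and Calb1 was lower, while Onecut1 and Onecut2 were both at 0.16 and Lhx1 at -0.31 (edgeR adjusted p = 0.70, 0.19 and 0.20), and with total counts alone Onecut2 was higher (0.35, edgeR adjusted p = 0.0042). The summed level of the 5 was 162 to 192 CPM in WT and 128 to 134 CPM in SCA7 retina. Among 8 bipolar cell genes, Cabp5 and Pcp2 were downregulated (summed level 913 to 1083 CPM in WT and 869.6 to 904 CPM in SCA7 retina). Of 9 ganglion cell genes, some of which displaced amacrine cells share, 0 were downregulated by edgeR, DESeq2 or limma-voom and 3 were lower at an unadjusted p under 0.05 in edgeR, against 20.2% of all genes, with the most abundant in CPM, Nefl, lower at a log2 fold change of -0.31 (edgeR adjusted p = 0.013). Of 9 clock and light-responsive genes, Per3 was downregulated (log2 fold change -0.54) and Egr1 upregulated (0.71), with edgeR adjusted p values of 2.1e-04 and 0.0026. These shares lie near the 7.91% and 7.47% of all genes tested. With total counts alone Nefl did not pass (-0.11, edgeR adjusted p = 0.20), and Tmem215 (-0.35), Cabp5 (-0.41), Per3 (-0.35) and the rod gene Pde6a (-0.48) were lower within the FC limits. In fits that left out 1 library the call held in 5 of 7 for Tmem215 and in 6 of 7 for Per3. No listed gene had 0 counts in any library, and the part of any of these cell types in the values of Gad1, Slc6a9 and Th was not tested.

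The genes whose levels ran most like those of the members over the 7 libraries were found by the root mean square difference of standardised log2 CPM among 13256 protein-coding genes, as a description in libraries that share their depth and genotype. Nearest to the GABA genes were Atcay (0.154) and Kirrel3 (0.169), and nearest to the acetylcholine genes were Nol11 (0.171) and Zfp213 (0.223). Slc6a9 ran most like Ccnj (0.0875) and the dopamine receptor gene Drd2 (0.0934), and Th most like Fam126a (0.131) and Acvr2a (0.151), but these are 2 of the 964 genes within 0.5 of Slc6a9 and 2 of the 884 within 0.5 of Th. Slc17a8 ran most like Ldb1 (0.151) and Zfp60 (0.201), and Tfap2b most like Tob1 (0.165) and Ackr1 (0.175).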

How the data were processed

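Total RNA-seq was made from the retinas of 4 WT and 3 SCA7 mice. The authors removed ribosomal RNA, made stranded libraries, sequenced 1 end of each fragment, aligned the reads to mm10 using TopHat2 2.0.14 and Bowtie2 2.1.0 and counted reads per gene with HTSeq 0.6.1 on an Ensembl annotation, and the deposited values are these raw counts, not normalized. HTSeq's overlap and strand settings are not given in the sources used here, and counts per gene do not separate isoforms. Each mouse is 1 library, and replicates differed by more than sampling noise.

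Genes were filtered with filterByExpr, scaled by TMM and tested with edgeR 4.0.16 (quasi-likelihood, robust, R 4.3.3), with p-values adjusted by Benjamini-Hochberg over the whole tested set and the study's FC limits. The fits were tested on simulated data, where the limit on unchanged genes called was loosened once after its first result. Alternatives were other scalings, DESeq2 1.42.0, limma-voom 3.58.1, other filters, a replicate block, Xist as a covariate, other thresholds and leaving out each library. RPK used DESeq2 size factors and GRCm38 transcript lengths, which were available for 52403 genes. All but 1 of 117 listed genes outside the members matched (Septin4 did not). The members and lists were chosen with earlier results of these data known. Named genes were all members, every called gene of the lists, the most abundant gene of a list without a call, and the 2 genes of at least 1 CPM most like each transmitter group, with others named after their values were seen; some listed genes are not reported here. Counts of members past the adjusted p at any FC were added after seeing the data.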

Additional observations from a re-analysis of the deposited data

Results flagged for a closer look

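Of 38 WT groups examined, in 3 a single library lay far from the other WT libraries, where chance alone gives about 1 in 20 groups. For Gad1 the gap between WT replicate 1, which was the lowest, and its neighbour was 0.896 of the whole WT range. For Slc6a13, WT replicate 1 was the highest and the gap was 0.85 of the range. For Ttr, WT replicate 3 was the lowest and the gap was 0.895 of the range.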

How the results depend on the processing

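With total counts in place of TMM, 978 genes were downregulated and 3681 upregulated over all genes, 0 members were downregulated, 1 member (Slc6a9) was lower and 1 (Gad2) higher at an adjusted p under 0.05, and 10 listed pathway genes were upregulated; Slc32a1 turned to 0.039, Slc5a7 to 0.18 and Tfap2b to 0.005 on the log2 scale. With TMM and no FC threshold the counts were 2852 and 2853 over all genes, 3 lower members, and 18 lower and 5 higher pathway genes. At an adjusted p under 0.01, 0 members were downregulated. Upregulated pathway genes numbered 4 without a low-count filter, 1 with at least 10 counts in every library and 4 with the replicate block. Slc5a7, near 0, also turned to 0.0041 with DESeq2, 0.013 without a filter and 0.012 with the block, and Chat passed with Xist as a covariate (-0.23, edgeR adjusted p = 0.044).

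With 1 library left out, 0 to 1 members were downregulated, 2 to 6 were lower at any FC (2 without SCA7 replicate 1 or 2: Gad1 and Slc6a9; 6 without WT replicate 1: Chat, Gad1, Slc18a3, Slc32a1, Slc6a9 and Th), and 2 to 4 pathway genes were upregulated. The log2 fold change then ran from -0.051 to 0.027 for Slc5a7 and from -0.050 to 0.0995 for Slc17a8, and the Slc18a3 to Chat ratio in SCA7 from 0.963 to 1.02 times WT, the highest without SCA7 replicate 2. Over the union of exons, WT levels were 2440 RPK for Gad1, 435.1 for Gad2, 2012 for Slc6a9, 174.6 for Chat, 249.8 for Slc5a7, 121.2 for Th, 186.4 for Slc17a8 and 602.6 for Tfap2b. The cause of these differences was not tested, beyond the shift of all genes that total counts bring.

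Replicate numbers are shared between genotypes. Deviations of same-numbered libraries correlated at 0.0053, 0.20 and 0.089, against -0.21 to 0.14 for WT and SCA7 libraries of unlike number. Animal numbers in the titles lie close for same-numbered mice, and the labels do not say whether these are litters. The numbers were not taken to pair the mice in the main fit, and the replicate block left 1 member downregulated. Th, with 154 to 330 counts a library, is the member that depth limits most.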
